A study of Mus musculus with 34 samples.

Results

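The effect of diet on pancreatic islets after streptozotocin (STZ, a toxin that enters beta cells through the glucose transporter GLUT2) was examined in 8 of the 34 bulk RNA-seq libraries of the series. Labels decided which libraries are members: 4 libraries of STZ-treated mice on the diet labelled HFD and 4 of STZ-treated mice on the diet labelled SD. The series as a whole followed islets after partial loss of beta cells, caused either by STZ or by diphtheria toxin (DT). All 8 libraries shared the genotype label RIP-DTR HTZ, the dose of 75 mg/kg STZ and the time label 10WPA, which stands at 10 weeks. RIP-DTR mice carry a DT receptor under the rat insulin promoter, that is in beta cells, and no label gives DT to the STZ groups. The sources used here give no strain, age, sex, diet composition or day on which the diets began. Untreated mice of the same genotype (CTRL HFD, n = 4, and CTRL SD, n = 3) and mice given DT (DT HFD, n = 3, and DT SD, n = 4), also at 10 weeks, served for comparison. Whether replicates are separate animals is not in the labels, so p-values measure only the spread between these samples.

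Islets hold beta cells, which secrete insulin, alpha cells, which secrete glucagon, and smaller numbers of delta and PP cells, which secrete somatostatin and pancreatic polypeptide. When insulin demand rises on a fat-rich diet, mouse islets are known to raise secretion and beta-cell replication, and after a loss of beta cells the remaining ones carry that demand alone. Isolated islets also bring along RNA of exocrine acini, lymph nodes, vessels and gut, so that markers of those tissues belong beside any result in whole islets.

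The 8 libraries held between 12235120 and 16080210 counts each. Their identity as islets was supported by insulin, glucagon, somatostatin and pancreatic polypeptide transcripts in every one of them. Levels are given as CPM, that is a gene's count scaled to a common library size, with sizes adjusted by TMM (trimmed mean of M values). SD replicates 1 and 4 stood apart from the other 6 libraries: on the first principal component, which took 46.3% of the variance of log2 CPM, they lay at 100.07 and 136.19, against -56.4 to -14.32 for the rest. They also held transcripts of intestinal enterocytes. The 20 enterocyte markers summed to 13780 CPM in SD 1 and 23970 CPM in SD 4, against 255.3 and 329.4 CPM in the other two SD libraries and 121.9 to 318.3 CPM on HFD. Meprin subunit Mep1a was the 1 marker of the list at 0 in all 4 HFD libraries. Acinar enzymes took 45.32% of the counts of HFD 4 (95% Wilson interval 45.29 to 45.35, counting error only), against 0.8564% to 20.76% elsewhere. All 8 libraries expressed Xist, from 563.5 to 2189 CPM, and the summed counts of 4 Y-linked genes were 0 or 1 in each.

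**Figure D1:**
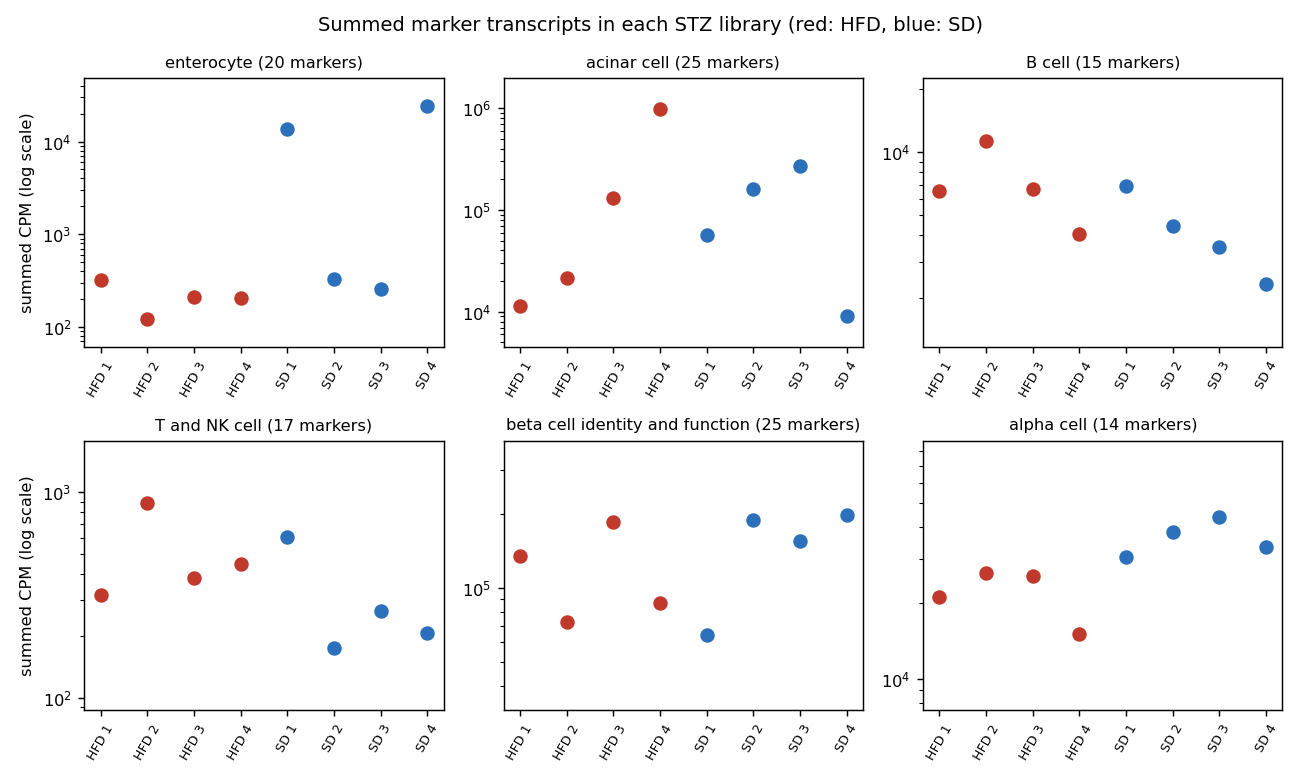
Summed CPM (log scale) of the marker lists of enterocytes, acinar cells, B cells, T and NK cells, beta cells and alpha cells in each of the 8 STZ libraries, 1 point per library, red for HFD and blue for SD. SD replicates 1 and 4 stand at 13780 and 23970 CPM for enterocyte markers while the other 6 reach at most 329.4 CPM, and the alpha-cell sums of the HFD libraries (15090 to 26260 CPM) all lie under those of the SD libraries (30310 to 43880 CPM).

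Few genes differed between the diets after STZ. Of 17616 genes tested, 24 were lower on HFD by edgeR's quasi-likelihood test (0.136% of those tested) and 0 were higher (0%). The adjusted p-values (Benjamini-Hochberg) of the 24 lay between 0.0258 and 0.0494, close under the threshold of 0.05. At an unadjusted p below 0.05, 588 genes were higher and 1705 lower. DESeq2's Wald test called 37 genes higher and 574 lower, all 24 of edgeR's among them. In bulk tissue, fewer cells of a type and less RNA per cell cannot be told apart, and this holds for each difference that follows.

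In 20 of the 24 genes the mean of SD replicates 1 and 4 was at least 2 times that of SD replicates 2 and 3, with ratios over all 24 from 1.26 to 60.2. Among all genes tested, 1523 had such a ratio. Without SD replicates 1 and 4, 0 genes were called by edgeR, the smallest adjusted p was 0.405, and at an unadjusted p below 0.05 there were 420 genes higher and 367 lower. DESeq2 was not run on that subset. The median difference of the 24 was -1.95 on the log2 scale with all libraries and -0.31 without those 2, and 18 of the 23 that could still be fitted stayed below 0. Of these 23, 9 had an unadjusted p below 0.05, of which 8 were lower on HFD and 1, Ptgr1, was higher (1.00). Single libraries also decided the count: edgeR called 0 or 1 genes lower when any 1 HFD library, SD 1 or SD 4 was left out, but 506 without SD 2 and 777 without SD 3.

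For 9 of the 24 genes every SD library, replicates 2 and 3 included, lay above every HFD library. Among all genes tested such a separation was seen for 215 genes lower on HFD (1.22%) and for 215 higher (1.22%). Since the 24 were called in these same libraries, a larger share among them follows in part from that choice. The 9 are Slc35a5, Clcn5, Gclm, Ndfip2, Klf4, Slc16a9, Slc22a5, Gucy2c and Ccdc68. The other 15 overlapped between the diets in at least 1 library.

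Slc35a5 (chromosome 16, 45139573 to 45158706, GRCm38) belongs to the nucleotide sugar transporters of the Golgi and endoplasmic reticulum. It stood at 23.5, 22.3, 25.7 and 23.1 CPM in HFD replicates 1 to 4 and at 35.3, 34.0, 31.4 and 47.6 CPM in SD replicates 1 to 4. The HFD libraries were tightly grouped and every SD library was above them. The log2 difference was -0.65 (SE 0.11), with the smallest adjusted p of the 24 genes by edgeR (0.0258). It was -0.47 without SD replicates 1 and 4.

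Clcn5 (chromosome X, 7153810 to 7319358) encodes an endosomal chloride and proton exchanger. Its levels were 15.0, 10.7, 12.8 and 13.9 CPM on HFD and 26.4, 21.8, 20.8 and 28.9 CPM on SD. The 2 ranges were apart, and SD replicates 2 and 3 lay above all HFD libraries too. The log2 difference was -0.90 (SE 0.17, edgeR adjusted p = 0.042), and -0.70 without SD replicates 1 and 4.

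Gclm (chromosome 3, 122245557 to 122270732), the modifier subunit of the enzyme that limits glutathione synthesis, stood at 38.4, 27.9, 35.7 and 43.0 CPM on HFD and 106.1, 54.3, 43.3 and 127.7 CPM on SD. SD 3 lay just above HFD 4, so the separation was narrow there. The difference was -1.20 (SE 0.24, edgeR adjusted p = 0.044) and -0.43 without SD replicates 1 and 4. Ndfip2 (chromosome 14, 105258573 to 105309298), an adaptor of NEDD4-family ubiquitin ligases, stood at 38.7 to 45.7 CPM on HFD and at 78.1, 58.7, 57.7 and 119.6 CPM on SD. Its difference was -0.87 (SE 0.18, edgeR adjusted p = 0.0494) and -0.44 without those 2 libraries.

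Klf4 (chromosome 4, 55527143 to 55532466), a zinc-finger transcription factor of epithelial differentiation, was at 22.4, 16.2, 20.6 and 17.3 CPM on HFD. On SD it was at 85.0 and 97.2 CPM in replicates 1 and 4 and at 28.3 and 30.3 CPM in replicates 2 and 3. The SD libraries thus formed 2 levels, both above HFD. The log2 difference was -1.65 (SE 0.30, edgeR adjusted p = 0.042) and -0.61 without replicates 1 and 4. The same 2 levels were seen for Slc16a9, a monocarboxylate transporter family member linked to carnitine efflux (10.1 to 14.6 CPM on HFD, 15.4 and 21.1 in SD 3 and SD 2, 60.7 and 64.9 in SD 4 and SD 1), and for Slc22a5, the carnitine importer OCTN2 (7.75 to 10.4 CPM on HFD, 10.8 and 13.3 in SD 2 and SD 3, 44.3 and 57.6 in SD 1 and SD 4). Their differences were -1.74 and -1.77.

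Gucy2c encodes guanylate cyclase C, the receptor for guanylin in gut epithelium. It reached 96.8 and 170.8 CPM in SD 1 and SD 4, but was also higher in SD 2 and SD 3 (13.9 and 16.0 CPM) than on HFD (3.39 to 7.03 CPM). The 20 enterocyte markers summed to 329.4 and 255.3 CPM in SD 2 and SD 3, against 121.9 to 318.3 CPM on HFD. Ccdc68, a centriole protein, stood at 0.87 to 2.70 CPM on HFD, at 3.95 and 4.05 CPM in SD 3 and SD 2, and at 10.8 and 14.2 CPM in SD 1 and SD 4.

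The upstream sequence of the called genes was read from RefSeq promoters on GRCm38.p6, which held 21 of the 24 (not Ccdc68, Gucy2c and Hsd17b4). The core of the antioxidant response element, the site bound by the stress factor NRF2, was searched as TGACNNNGC on both strands in the 250 bases before each start. The motif was chosen after the called genes were known. It was present for 7 of the 21 genes (Clcn5, Ehhadh, Fbp1, Gclm, Ndfip2, Slc4a7 and Ugdh), against 11.5% of the 27025 genes with a promoter and 10.2% of the 32851 promoters. The other called genes with a promoter had no match, among them Nqo1, Gsta2, Gstm1, Akr1b8 and Ptgr1. For Ugdh the window overlaps an exon, and for Slc4a7 the match lies inside the Slc4a7 gene. Because of the late choice of the motif, these shares do not test for an enrichment. Of the 9 separated genes, 7 have a promoter in the table and 3 of these held the motif. They are shown, since in these genes no STZ HFD library reached the level of any STZ SD library (for Gclm by a narrow margin). Capitals mark the match, which reads GCNNNGTCA where it lies on the other strand, and each sequence runs 5′ to 3′ on the gene's strand.
Gclm promoter, chr3:122245398-122245456, plus strand: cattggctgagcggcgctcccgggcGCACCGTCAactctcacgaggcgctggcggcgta
Ndfip2 promoter, chr14:105258444-105258502, plus strand: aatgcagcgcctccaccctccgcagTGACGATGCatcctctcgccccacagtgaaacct
Clcn5 promoter, chrX:7188835-7188893, minus strand: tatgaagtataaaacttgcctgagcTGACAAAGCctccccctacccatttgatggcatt
The Gclm and Ndfip2 stretches overlap no gene of GENCODE M21, whereas that of Clcn5 lies inside the Clcn5 gene, between exons. A match describes these letters only.

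In the remaining 15 called genes SD replicate 2, SD replicate 3 or both lay within or under the HFD range. Nqo1 (chromosome 8, 107388225 to 107403206), a quinone reductase and textbook NRF2 target, stood at 3.70, 1.83, 3.34 and 2.58 CPM on HFD, at 3.68 and 4.88 CPM in SD 2 and SD 3, and at 56.0 and 60.7 CPM in SD 1 and SD 4. The difference of -3.44 (SE 0.65, edgeR adjusted p = 0.044) became -0.57 without the latter 2. Ehhadh (chromosome 16, 21761287 to 21787807), the bifunctional enzyme of peroxisomal beta-oxidation, was at 6.50 to 14.9 CPM on HFD and 11.5 and 14.9 CPM in SD 3 and SD 2, against 140.5 and 249.1 CPM in SD 1 and SD 4. Ugdh, which makes UDP-glucuronic acid for glucuronidation, was at 29.8 to 31.3 CPM in all HFD libraries and at 29.7 and 30.4 CPM in SD 2 and SD 3, but at 453.4 and 542.0 CPM in SD 1 and SD 4.

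The same held for Fbp1, an enzyme of gluconeogenesis (1.13 to 3.63 CPM on HFD, 2.67 to 218.0 on SD), Retsat, which saturates retinol (5.70 to 8.23 CPM on HFD, 6.13 to 266.0 on SD), and the glutathione transferases Gsta2 and Gstm1 (differences of -7.44 and -2.31). Gsta2 has near-identical copies among which reads could be split, and with HFD levels of 0 to 0.29 CPM its fitted difference depends on the prior count. The aldo-keto reductase Akr1b8, the prostaglandin reductase Ptgr1, Retsat, the lipid-droplet dehydrogenase Hsd17b11 and Ugdh had differences above 0 once SD replicates 1 and 4 were left out. Por, the electron donor of microsomal cytochromes P450, Hsd17b4, a peroxisomal enzyme, Abhd6, a monoacylglycerol lipase, Atp2b1, a plasma-membrane calcium pump, and Slc4a7, a bicarbonate cotransporter, had differences of -0.82 to -1.68 with all libraries, and each was less far from 0 without those 2. Whether enterocyte RNA accounts for these values was not tested beyond leaving the libraries out and fitting the enterocyte score as a covariate, with which edgeR called 0 genes while all 24 stayed below 0, from -3.12 to -0.53 (403 higher and 675 lower at an unadjusted p below 0.05).

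**Figure D2:**
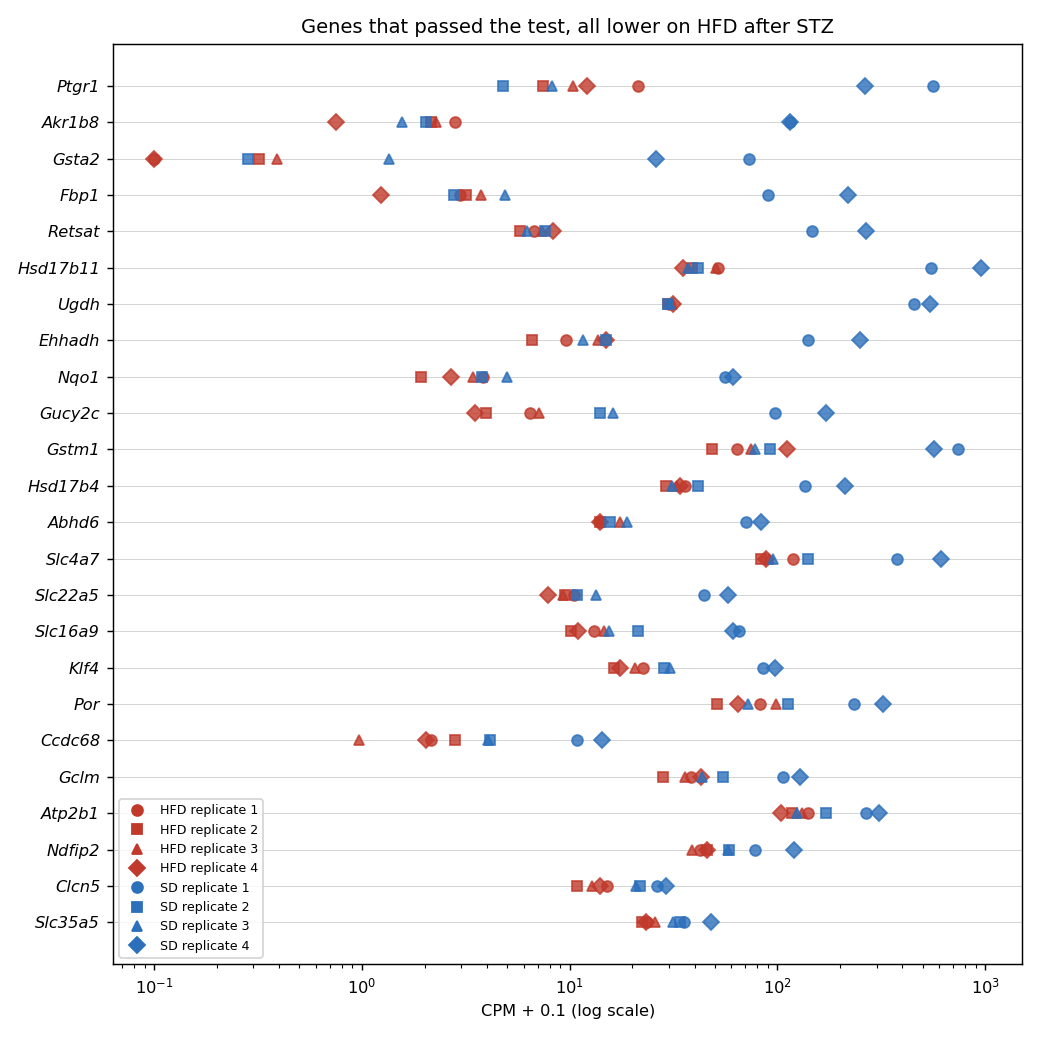
CPM + 0.1 (log scale) of the 24 genes lower on HFD after STZ in each library, red for HFD and blue for SD, with the symbol giving the replicate. Genes are ordered by the ratio of SD replicates 1 and 4 to SD replicates 2 and 3, from 1.26 for Slc35a5 at the bottom to 60.2 for Ptgr1 at the top: at the bottom all blue points lie right of the red ones, at the top only the blue circle and diamond do.

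Insulin transcripts did not separate the diets. Ins2 (chromosome 7), the more abundant of the 2 mouse insulin genes, stood at 88460, 46070, 119700 and 55560 CPM on HFD and at 41890, 126700, 96180 and 132200 CPM on SD. Its lowest level was in SD 1 and its next lowest in HFD 2, so that the groups overlapped almost fully. The log2 difference was -0.36 (SE 0.51, edgeR adjusted p = 0.79). Ins1 ran from 18560 to 52680 CPM on HFD and from 16800 to 49710 CPM on SD. The ratio of Ins1 to Ins2 counts, which library scaling cannot affect, was 0.379 to 0.440 on HFD and 0.376 to 0.450 on SD (difference of log2 ratios 0.01, exact two-sided permutation p = 0.857, smallest possible p = 0.0286).

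Of the 25 beta-cell genes tested, 0 rose and 0 fell, 22 had a difference below 0 and 3 above, and the median was -0.31 against 0.005 over all genes tested. Without SD replicates 1 and 4 it was -0.47, and without HFD replicates 2 and 4 as well it was -0.21. Slc2a2 (GLUT2) stood at 223.3, 140.5, 353.4 and 207.2 CPM on HFD and at 362.3, 469.2, 198.9 and 931.5 CPM on SD. GLUT2 is also a transporter of enterocytes, and its highest level was in SD 4. Its difference of -1.09 (SE 0.40, edgeR adjusted p = 0.20) became -0.53 without SD 1 and SD 4. Mafa, a factor of mature beta cells, ran from 28.2 to 70.3 CPM on HFD and from 38.1 to 123.8 CPM on SD (adjusted p = 0.77), and Ucn3, a peptide of mature beta cells, had a difference of -0.06 (SE 0.41). Aldh1a3, a marker of dedifferentiated beta cells, stood at 1.13 to 2.60 CPM on HFD and at 10.2, 4.60, 1.25 and 23.6 CPM on SD. Its high SD values were in the libraries with gut markers, and its difference did not pass (-2.41, edgeR adjusted p = 0.11).

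The machinery that packs and releases hormone followed the beta-cell genes. Of 24 granule genes tested, 0 passed, 23 lay below 0 and 1 above, with a median of -0.42. It was -0.51 without SD replicates 1 and 4, and -0.23 without HFD replicates 2 and 4 as well. The granule protein Chga ran from 2606 to 7068 CPM on HFD and from 3957 to 9848 CPM on SD, and the convertase Pcsk2 from 744.8 to 1612 CPM and from 1207 to 2408 CPM. Both ranges overlapped. Their differences were -0.73 (SE 0.37) and -0.68 (SE 0.32), with edgeR adjusted p-values of 0.40 and 0.36.

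Glucagon and the alpha-cell factors Irx1 and Pou3f4 separated the diets library by library, yet no gene of the alpha-cell list passed. Gcg (chromosome 2, 62474530 to 62483650), which encodes glucagon, stood at 19630, 24300, 23310 and 13690 CPM on HFD and at 28260, 35880, 41240 and 31090 CPM on SD. Every SD library was above every HFD library. The log2 difference was -0.75 (SE 0.37, edgeR adjusted p = 0.38). Mean and standard deviation were 20230 ± 4802 CPM on the HFD diet (n = 4) and 34120 ± 5698 CPM on the SD diet (n = 4). Leaving out SD replicates 1 and 4 gave -0.93.

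Irx1, a homeobox transcription factor of alpha cells, was at 5.81 to 11.5 CPM on HFD and 14.0 to 21.7 CPM on SD (-0.92, SE 0.34, edgeR adjusted p = 0.20). Pou3f4, another alpha-cell transcription factor, was low throughout, at 0.29 to 0.94 CPM on HFD and 0.98 to 2.39 CPM on SD. As for Gcg, the groups of both genes did not overlap, an order with lower levels on HFD that 1.22% of all genes had.

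Over the 14 alpha-cell genes the median was -0.68, with 13 below 0 and 1 above. Without SD replicates 1 and 4 it was -0.86, again with 13 below 0, and without HFD replicates 2 and 4 as well it was -0.81. The exception was Slc38a5, a glutamine transporter, whose highest level was in the acinar-rich HFD 4 (73.6 CPM against 7.96 to 25.2 CPM in the other 7). Relative to insulin, glucagon did not differ detectably. The ratio of Gcg counts to the sum of Ins1 and Ins2 counts was 0.160, 0.376, 0.135 and 0.179 on HFD and 0.481, 0.206, 0.296 and 0.171 on SD (difference of log2 ratios -0.45, exact two-sided permutation p = 0.371).

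**Figure D3:**
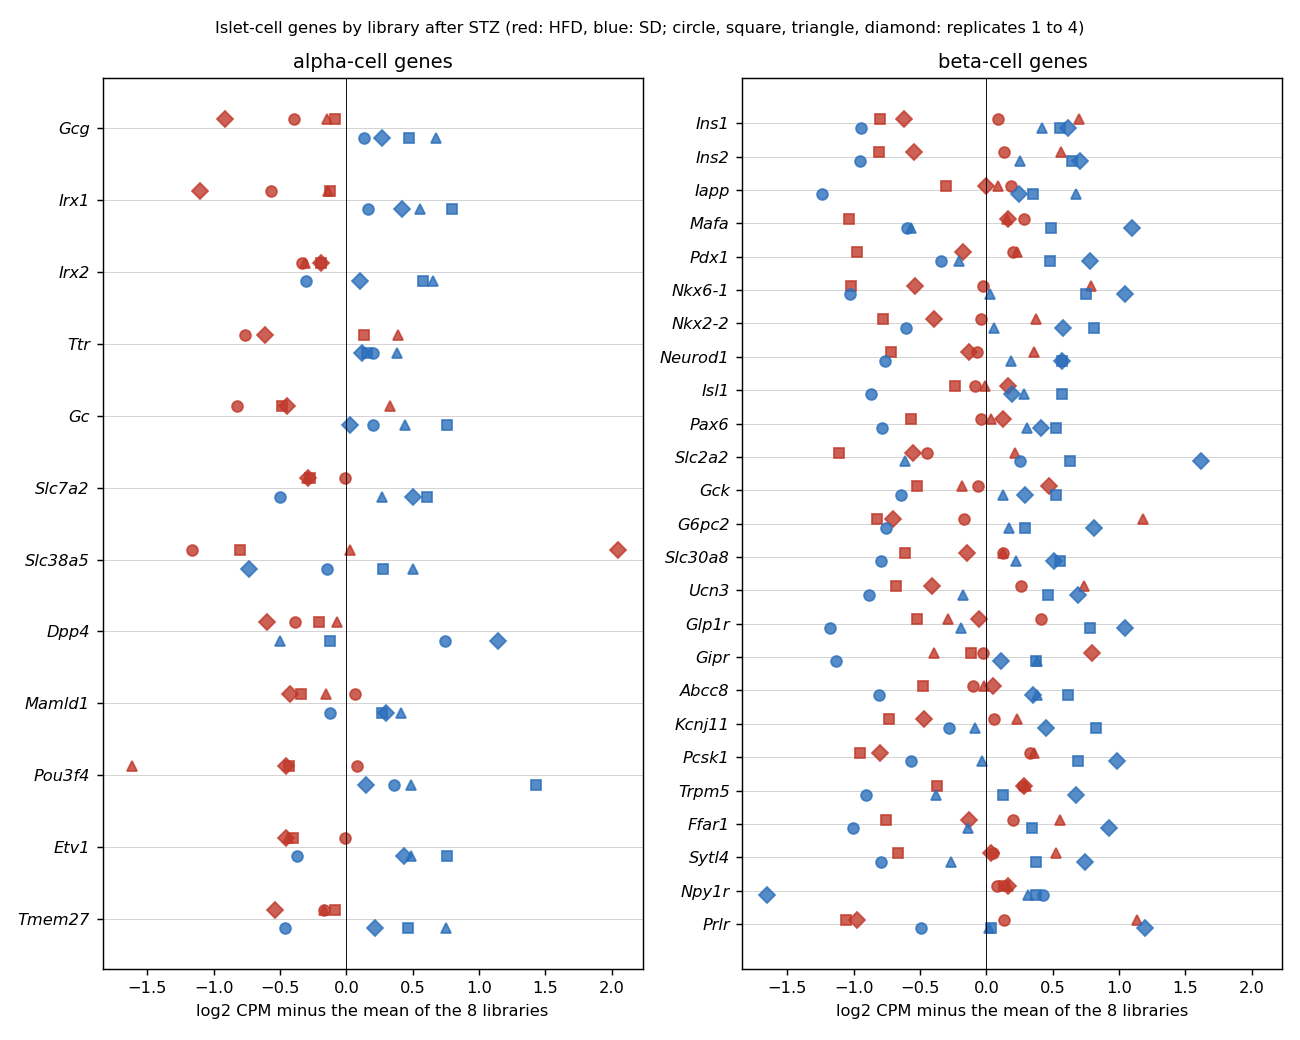
Log2 CPM minus the mean of the 8 libraries for 12 of the 14 alpha-cell genes (left) and the 25 beta-cell genes tested (right), red for HFD and blue for SD, with circle, square, triangle and diamond for replicates 1 to 4. Gcg, Irx1 and Pou3f4 have all blue points right of all red ones, whereas among beta-cell genes SD replicate 1 often lies at the low end beside HFD replicate 2.

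Sst, the delta-cell hormone somatostatin, was at 4850, 2674, 3662 and 1933 CPM on HFD and at 4523, 4814, 4983 and 4867 CPM on SD. The SD libraries were nearly equal, and HFD 1 lay among them. The difference was -0.55 (SE 0.67, edgeR adjusted p = 0.75). Ppy, pancreatic polypeptide, was at 1690 to 2234 CPM on HFD and at 1755, 7016, 8295 and 2189 CPM on SD, so that only SD 2 and SD 3 were high. Pyy, a related peptide, was highest in the same 2 libraries (2408 and 1889 CPM, against 649.1 to 1182 in the other 6). The difference in Ppy was -1.27 with an SE of 1.49, and the ratios of Sst and Ppy to insulin gave exact permutation p-values of 0.571 and 0.343.

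The list of fatty acid oxidation and PPAR target genes had 24 tested members, of which 1 fell (Ehhadh) and 0 rose. Below 0 lay 23, with a median of -0.93, and 22 had an unadjusted p below 0.05. Over all 17616 genes tested, 0.136% were called lower, and at an unadjusted p below 0.05, 1705 were lower and 588 higher. In 19 of the 24 list members the mean of SD 1 and SD 4 was at least 2 times that of SD 2 and SD 3. Without SD 1 and SD 4 the median of the list was -0.10.

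Pdk4, a kinase that inhibits pyruvate dehydrogenase, was also highest in SD 1 and SD 4, but in SD 2 and SD 3 it still lay above HFD. It stood at 17.6, 13.7, 17.3 and 11.3 CPM on HFD and at 50.1, 35.5, 24.5 and 79.0 CPM on SD. All SD libraries were above all HFD libraries. The difference was -1.65 (SE 0.37), which just missed the threshold (edgeR adjusted p = 0.052), and -0.997 without SD replicates 1 and 4. Txnip, a glucose-induced inhibitor of thioredoxin, was at 307.7 to 442.2 CPM on HFD and 288.8 to 457.5 CPM on SD (-0.11, SE 0.15), with overlapping groups.

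Of 17 genes in the list of oxidative stress and NRF2 targets, 2 fell (Nqo1 and Gclm) and 0 rose, against 0.136% and 0% of all genes tested. Below 0 lay 15, and the median was -0.90. In 12 of the 17 the mean of SD 1 and SD 4 was at least 2 times that of the other SD libraries, and the median without them was -0.09. Gclc, the catalytic partner of Gclm, was at 32.5 to 42.3 CPM on HFD, at 37.9 and 39.4 CPM in SD 2 and SD 3 and at 158.2 and 144.4 CPM in SD 1 and SD 4 (edgeR adjusted p = 0.052). Catalase (Cat) stood at 313.2 and 551.8 CPM in SD 1 and SD 4 and at 35.2 to 68.3 CPM in the other 6. Glycolysis and oxidative phosphorylation genes had medians of -0.35 and -0.31 with 0 passing, and of 0.195 and 0.08 without SD replicates 1 and 4.

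Genes of cell division had differences above 0, but none passed. All 22 mitosis genes tested lay above 0, with a median of 0.75, and of 28 DNA replication genes 27 did, with a median of 0.45. Mki67, which encodes the proliferation antigen Ki-67, stood at 42.7, 93.9, 34.6 and 27.8 CPM on HFD and at 64.9, 19.9, 16.3 and 14.6 CPM on SD. SD 1 lay above 3 of the 4 HFD libraries, while the other SD libraries lay under all of them. The difference was 0.78 (SE 0.56, edgeR adjusted p = 0.58). Without SD replicates 1 and 4 the medians were 1.33 for mitosis and 0.77 for DNA replication, with 0 genes called.

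The libraries highest in these genes were also highest in lymphocyte markers. The mitosis genes summed to 459.4 CPM in HFD 2, 345.2 in SD 1, 214.1 in HFD 3, 213.8 in HFD 1, 165.0 in HFD 4 and 87.11 to 107.7 CPM in the other SD libraries. The 4 libraries with the most B-cell transcripts were the same ones, at 11250 CPM in HFD 2, 6919 in SD 1, 6672 in HFD 3 and 6503 in HFD 1, against 2346 to 4453 CPM in the remaining 4. HFD 4 had a lower B-cell sum (4056 CPM) than SD 2 (4453 CPM), although its mitosis sum was higher. T and NK cell markers were also highest in HFD 2 (884.9 CPM) and SD 1 (602.9 CPM). So were the sums of macrophage markers (2061 and 1472 CPM), interferon response genes (1352 and 1331 CPM) and inflammatory genes (372.5 and 309.4 CPM), so the order was not particular to lymphocytes. All 15 B-cell genes lay above 0 with a median of 0.54 and 0 passing. The part of lymphocytes in the cell-cycle values was not tested.

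**Figure D4:**
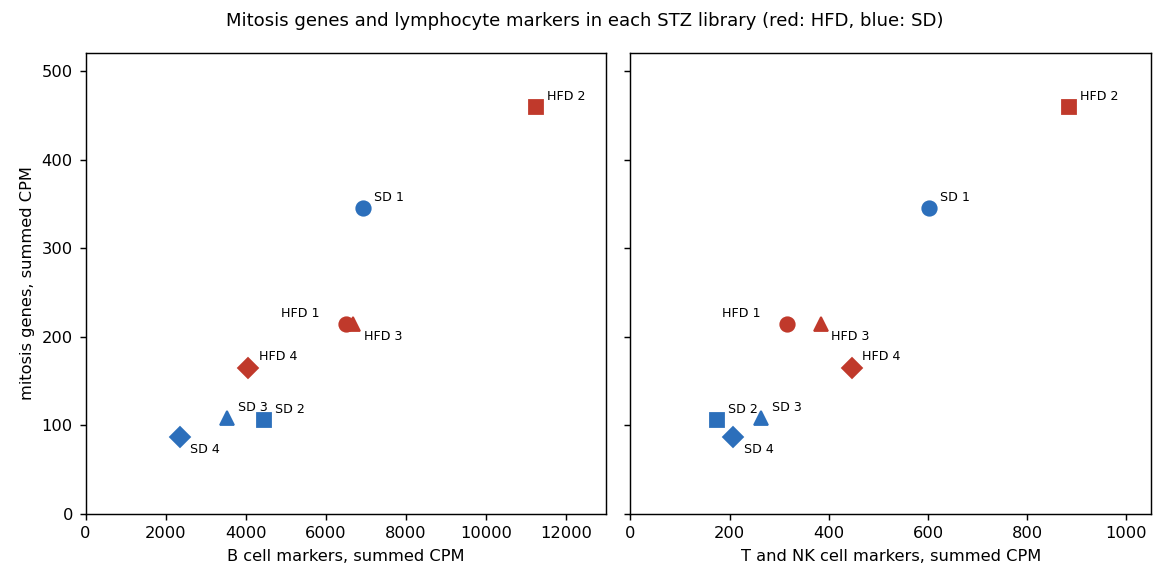
Summed CPM of the 22 mitosis genes against summed CPM of B-cell markers (left) and of T and NK cell markers (right), 1 point per STZ library, red for HFD and blue for SD. HFD replicate 2 and SD replicate 1 are highest in mitosis genes (459.4 and 345.2 CPM) and in both lymphocyte sums.

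Chek1, a checkpoint kinase of replicating cells, had the smallest p among genes higher on HFD with a mean log2 CPM of 1 or more. It stood at 3.59, 6.57, 3.84 and 5.33 CPM on HFD and at 2.06, 1.38, 1.56 and 1.31 CPM on SD. Each HFD library was above each SD library, SD 1 included. The difference was 1.61 (SE 0.36, edgeR adjusted p = 0.052), and 1.71 without SD replicates 1 and 4. Fancb, of the Fanconi anaemia DNA repair complex, had a difference of 1.15 (SE 0.33, adjusted p = 0.093), from 2.38 to 5.33 CPM on HFD and 1.44 to 1.84 CPM on SD.

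Others among the 12 smallest p-values in that direction, above that minimum and without Gm, Rik and pseudogene symbols, were Zdhhc16, a palmitoyl transferase (11.2 to 17.1 CPM on HFD, 7.87 to 9.66 on SD, 0.68, edgeR adjusted p = 0.058), Nkrf, a repressor of NF-kappa-B (0.89), Zcwpw1, a histone reader (1.24), Acad9, an assembly factor of respiratory complex I (0.41) and Slc17a9, the vesicular nucleotide transporter (0.64). The groups did not overlap for these genes other than Slc17a9, as for 1.22% of all genes. For some others of the 12, not named here, the groups overlapped. The 12 were chosen by their p-values in these same libraries, which favours such a separation, and 0 of them passed. The immunoglobulin segment Igkv3-10 stood at 144.3, 263.4, 9.86 and 33.1 CPM on HFD and at 3.03 to 12.5 CPM on SD (3.84, SE 1.07, adjusted p = 0.091), so that HFD 1, HFD 2 and HFD 4 lay above all SD libraries and HFD 3 among them. Slc2a4, the insulin-responsive transporter GLUT4 from the adipose list, was at 1.09 to 2.93 CPM on HFD and 0.39 to 1.01 CPM on SD (1.62, SE 0.39, edgeR adjusted p = 0.057). The 14 adipose genes tested had a median of 0.16, with 6 below 0 and 7 above. At an unadjusted p below 0.05, 2 of them were higher and 3 lower. The summed CPM of the adipose list was lower on HFD, at 235.9 to 283.4 against 330.7 to 360.5 on SD.

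Matrix and stromal genes leaned towards HFD without passing. Of 20 genes tested, 19 lay above 0, with a median of 0.47, and 0.28 without SD replicates 1 and 4. Col1a1, a chain of type I collagen, stood at 93.6, 56.3, 142.9 and 45.9 CPM on HFD and at 64.8, 54.0, 49.3 and 29.0 CPM on SD, with overlapping groups (0.78, SE 0.28, edgeR adjusted p = 0.18). Col3a1 had a difference of 0.64 (SE 0.26). Timp1, an inhibitor of matrix metalloproteinases, was at 0.81 to 1.55 CPM on HFD and 0.09 to 0.52 CPM on SD (1.94, SE 0.53, edgeR adjusted p = 0.084). It was the 1 matrix gene whose groups did not overlap, an order with higher levels on HFD that 1.22% of all genes had. Its levels lay near the floor, so this difference is imprecise.

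Several programmes were near the median of all genes. The list for the unfolded protein response (23 chaperones and folding enzymes) had a median of 0.13, the 20 integrated stress response genes -0.03, the 22 sterol synthesis genes -0.02, the 15 insulin and IGF signalling genes -0.02 and the 15 endothelial genes -0.09, and in each of these lists 0 genes passed. Without SD replicates 1 and 4 and HFD replicates 2 and 4, the integrated stress response list stood at -0.35 and the sterol list at 0.30. Among immediate early genes, Klf4 was the 1 of 15 that fell (0.136% over all genes tested), and the median was -0.05. Hbegf encodes the growth factor whose primate version is used as DT receptor. It stood at 408.4 CPM in HFD 1 and at 5.62 to 34.0 CPM in the other 7 libraries (edgeR adjusted p = 0.12). The sources used here do not say whether transgene reads are counted under it.

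**Figure D5:**
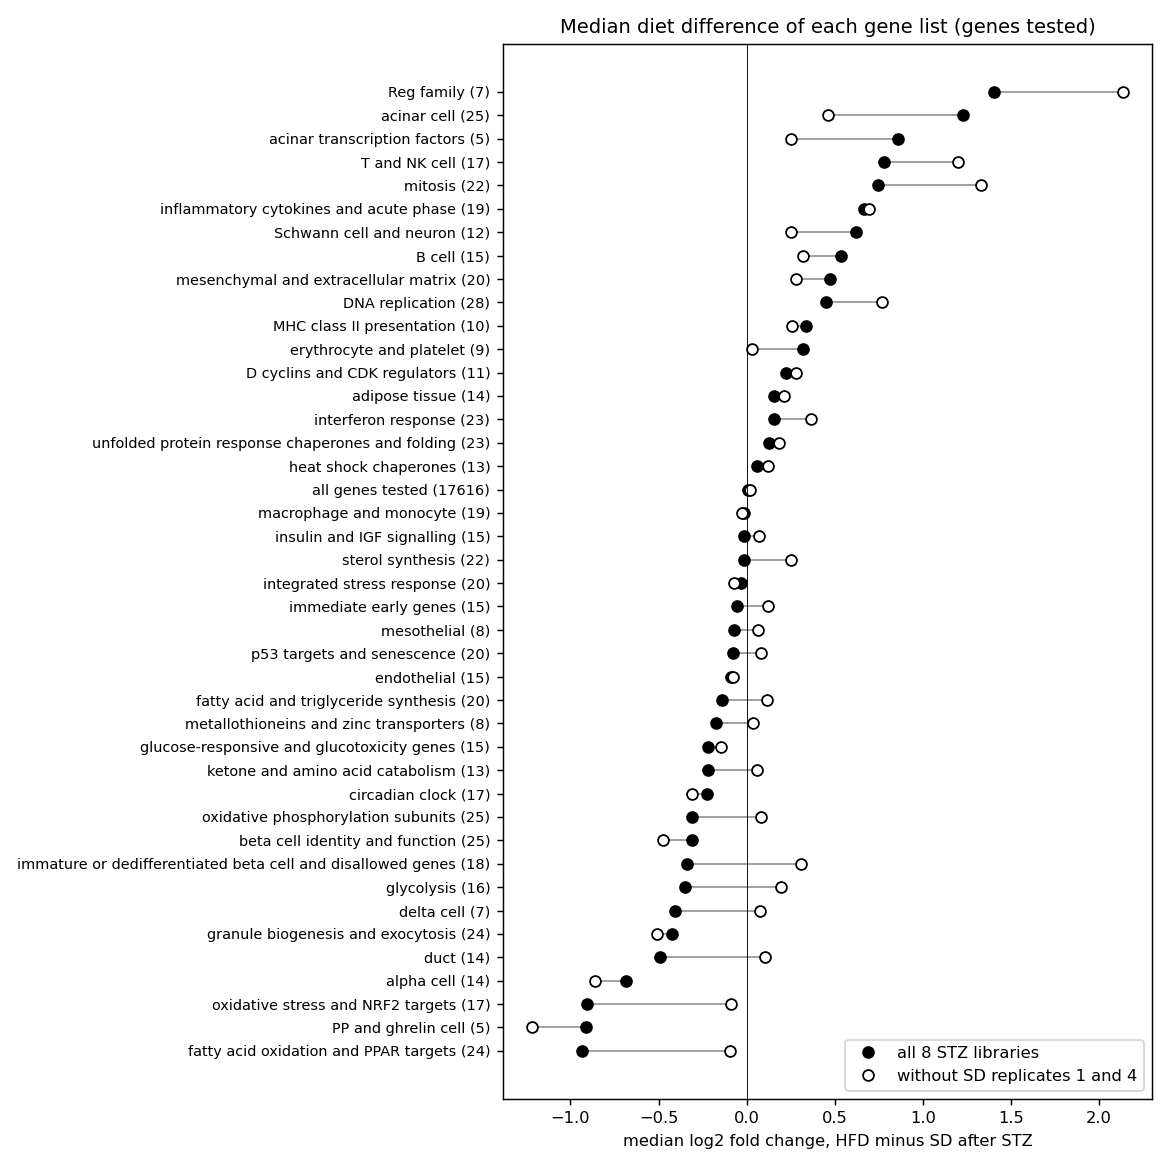
Median log2 difference (HFD minus SD after STZ) of each gene list, with the number of genes tested in brackets, for all 8 STZ libraries (filled) and without SD replicates 1 and 4 (open). Lists of enterocytes and of other gut cells (medians -7.20 and -5.69) are left off the axis. The fatty acid oxidation and NRF2 lists move from -0.93 and -0.90 to -0.10 and -0.09, while the alpha-cell list stays at -0.68 and -0.86.

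The diet difference after STZ was set against that in untreated mice, with which it shares no library. By edgeR 0 genes differed between the 2 diet effects (0% of 17616), while 1163 had an unadjusted p below 0.05 and DESeq2 called 5 higher and 49 lower. The 24 genes, which were chosen for their difference after STZ, had a median diet difference of 0.02 in untreated mice (from -0.83 to 0.49), 12 below 0 and 12 above, against -1.95 after STZ. Among them the smallest adjusted p of the difference between the effects was 0.475 by edgeR. Gcg had a diet difference of 0.09 in untreated mice and -0.75 after STZ (difference -0.85, SE 0.54, edgeR adjusted p = 0.88), and the alpha-cell list had medians of 0.05 and -0.68. For Ins2 the values were -0.70 and -0.36, and for the mitosis list 0.73 and 0.75.

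After DT, in libraries that are again not shared, 8.46% of all genes were lower on HFD. Of the 24 genes 2 were, a share close to that background: Slc35a5 (-0.46, edgeR adjusted p = 0.0087) and Ndfip2 (-0.61, adjusted p = 0.030). The medians after DT were -0.98 for beta-cell genes, -0.58 for alpha-cell genes and 2.40 for mitosis genes, beside -0.31, -0.68 and 0.75 after STZ. One gene passed the edgeR test of a difference between the diet effects after STZ and after DT (0.00568% of those tested), the immunoglobulin segment Ighv5-9. It stood at 7.0, 21.9 and 321 CPM in DT HFD and at 0.0819 to 1.15 CPM in DT SD, and at 0 to 1.60 CPM on HFD and 3.32 to 18.0 CPM on SD after STZ. The difference between the effects was -11.43 on the log2 scale. The call was lost without the low-count filter, in the compared groups alone, with the replicate block, with either covariate, and when HFD 1, 2 or 4 or SD 1 or 4 of the STZ groups was left out. At an unadjusted p below 0.05 there were 3607 genes, and DESeq2 called 213 higher and 636 lower.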

How the data were processed

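Islet RNA was sequenced in 34 libraries with a stranded mRNA kit, per the labels' protocols. The deposited table gives, per the file headers, total counts per gene for each library, and these counts entered every test. The RPKM, TPM and a rescaled CPM-like score that the authors deposited beside them were not used. The genome build is mm10, per the submitters' processing notes, which is GRCm38. The aligner, the counter and its strand setting were not given in the sources used here. Of 48709 gene identifiers 99.26% were found in GENCODE M21, which gave the coordinates.

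The labels placed 33 libraries in 9 groups. The library titled as a CTRL HFD replicate but labelled with DT treatment was left out. No 2 libraries of the STZ HFD or of the STZ SD group agreed within counting noise, and none was merged. The low-count filter was edgeR's filterByExpr (version 4.0.16 in R 4.3.3, with minima of 10 counts and 15 in total), which left 17616 genes. One quasi-likelihood fit with TMM scaling and robust shrinkage covered all 33 libraries with group as the only factor, and p-values were adjusted over all genes tested (Benjamini-Hochberg, threshold 0.05). It was tested on simulated data. SE stands for an approximate standard error of a log2 difference, taken as the size of the difference divided by the square root of the test's F statistic. Library totals of 11083117 to 18918348 counts leave genes of a few CPM imprecise. Hormone ratios were compared by exact two-sided permutation over 8 libraries, in 4 comparisons without adjustment.

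The labels decide which libraries belong to the comparison, but the comparison, and so its members, and the gene lists were chosen with earlier results of these data known. The named genes come from 12 fixed islet genes and the 12 largest called falls among genes whose mean log2 CPM is 1 or more. They also come from the 12 smallest p-values among rises that did not pass, under the same minimum, and from up to 3 genes per list. Gm, Rik and mitochondrial symbols and pseudogenes were left out of both the falls and the rises. Not every gene of these sets is printed. The 10 further called genes and Hbegf, Gclc, Cat, Col3a1, Chga, Pou3f4, Slc38a5, Pyy and Mep1a were added after their values were seen. A few genes are not reported here by name, though the counts, sums and medians of their lists include them. Reads of gene families with near-identical copies (Gsta, Gstm, Reg, immunoglobulin segments) could be split between copies. Alternatives were DESeq2 1.42.0 (its Wald test and its size factors), other filters, the compared groups alone, covariates for acinar and enterocyte scores, marker genes left out of scaling, a replicate block and left-out libraries.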

Additional observations from a re-analysis of the deposited data

Results flagged for a closer look

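In groups of 4, a library was singled out where its gap to the nearest other library was a larger share of the group's range than Dixon's test allows, which chance does in about 1 of 20 groups. Many genes and list sums were screened in this way, so flags by chance are to be expected among those below. Which of them arose by chance was not tested. STZ HFD 2 was the highest for the mitosis sum (459.4 CPM, the others 165.0 to 214.1) and for inflammatory and acute phase genes (372.5 CPM, the others 238.8 to 258.1), and the lowest for Mafa (28.2 CPM, the others 64.4 to 70.3). STZ HFD 4 was the highest for acinar markers (976700 CPM, the others 11460 to 131300; its scaling factor of 0.464 lifts its CPM), for the Reg family (11820 CPM, the others 134.3 to 1421), acute-phase lectins that exocrine tissue secretes, and for Slc38a5 (73.6 CPM). STZ HFD 1 was the highest for Hbegf (408.4 CPM), and STZ HFD 3 for Abhd6 (17.3 CPM, the others 13.8 to 13.9).

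Among SD libraries, replicate 1 was the highest for the mitosis sum (345.2 CPM, the others 87.11 to 107.7), the DNA replication sum (611.7 CPM, the others 286.7 to 302.1) and Mki67 (64.9 CPM, the others 14.6 to 19.9). Replicate 3 was the highest for the summed goblet, Paneth and enteroendocrine list (5319 CPM, the others 3603 to 3670), and replicate 4 for Mep1a (8.59 CPM, the others 0 to 1.06) and Cdkn2b (17.45 CPM). The goblet list shares Zg16 with the acinar list and Chgb with the granule list, so its sum does not measure gut cells alone. Acinar markers took 20.76% of the counts of SD 3, the largest share among the SD libraries.

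The diet difference in Ighv5-9 after STZ differed from that after DT by -11.43 on the log2 scale in edgeR's test of the difference. The counts behind it reached 5284 in DT HFD 3 and were 0 in STZ HFD 4. What these libraries share beyond the values given was not tested.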

How the results depend on the processing

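The count of 24 genes lower on HFD became 0 without a low-count filter, in the compared groups alone, with the enterocyte covariate, without SD 1 and 4, without HFD 2 and 4 and without all 4, 8 with the acinar covariate and 574 (37 higher) with DESeq2. It ranged from 0 to 777 lower and from 0 to 164 higher when 1 library was left out, the highest counts being those without SD 3 (777 and 164) and SD 2 (506 and 15). With the replicate number as a block it was 0, although same-numbered libraries did not deviate together (correlations -0.06 to 0.19), so they were not treated as pairs. With DESeq2 size factors, a stricter filter or marker genes left out of scaling, 24, 22 and 24 of the 24 passed. Against untreated mice DESeq2 called 5 higher and 49 lower. Against DT, the 1 lower gene became 0 without the filter, with the block, in the compared groups alone, with either covariate, without SD 1 and 4 and without HFD 2 and 4, and 636 (213 higher) with DESeq2. One higher gene appeared with the stricter filter, without HFD 2 and 4 and without all 4, and leaving out 1 library gave 0 to 445 lower and 0 to 88 higher. Without SD 1 and 4, and without all 4, the differences turned above 0 for Akr1b8 (0.19 and 0.53), Ptgr1 (1.00 and 1.31), Retsat (0.018 and 0.022), Hsd17b11 (0.17 and 0.39) and Ugdh (0.018 and 0.014). When 1 library was left out, log2 ratio differences ran from -0.036 to 0.065 for Ins1 to Ins2 (-0.036 without HFD 3, -0.021 without SD 2 or SD 4), -0.76 to -0.16 for Gcg, -0.47 to 0.039 for Sst (0.039 without SD 1) and -1.08 to -0.30 for Ppy to insulin, and none of these passed the exact permutation test. The causes of these shifts were not tested. With 4 libraries a group, 2 of them rich in gut RNA and 1 in acinar RNA, precision differed between genes: Gcg and Mki67 had standard errors of 0.37 and 0.56 and did not pass, while Slc35a5, with 0.11, passed at a smaller difference.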

Other observations

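Other gene groups had these values. Of 17 circadian clock genes 16 lay below 0 on HFD with a median of -0.23, and -0.31 without SD replicates 1 and 4, with 0 passing. Cdkn1a, the cell-cycle inhibitor and p53 target p21, stood at 45.4 and 69.6 CPM in SD 1 and SD 4, against 7.91 to 21.1 CPM elsewhere. Among other inhibitors, Cdkn2b was highest in SD 4 (17.5 CPM). Its level in the other SD libraries (4.96 to 6.68 CPM) also lay above that in every HFD library (2.10 to 4.31 CPM, edgeR adjusted p = 0.093). Such an order was seen for 1.22% of all genes. Cdkn2d was lowest in SD 4 (8.92 CPM, 13.2 to 20.2 CPM elsewhere). Granzymes A and B, proteases of cytotoxic lymphocytes, were also highest in SD 1 and SD 4 (Gzma 32.3 and 33.7 CPM in SD 1 and SD 4, 1.89 to 9.73 CPM elsewhere), although the T and NK cell list as a whole had a median of 0.78. Cd163, a scavenger receptor of tissue macrophages, was at 12.5 and 12.3 CPM in SD 2 and SD 3 and at 1.94 to 9.66 CPM in the other 6. Sesn2, a target of the integrated stress response, had a difference of -0.64 (SE 0.23), and Idi1, of sterol synthesis, one of 0.46 (SE 0.20), and neither passed.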
